A study of Mus musculus with 24 samples.

Results

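Among 144411 open chromatin regions of mouse macrophages, 959 (0.664%) were closed by both the glucocorticoid dexamethasone (Dex) and the cytokine interleukin 4 (IL4) in wild type cells. Open chromatin was read by ATAC-seq: a transposase inserts sequencing tags where DNA is accessible, and a region called as accessible is a peak. The value of a peak in a library is its read count scaled to a common library total (CPM, counts per 1000000 counts in peaks), and a level for choosing peaks is the mean over a group of log2(CPM + 0.5). A peak was a member when its level in WT Dex and its level in WT IL4 were each at least 0.6 below WT vehicle, and all 4 CPM of each treated group lay below all 4 vehicle CPM. The rule used the WT libraries, so the WT values are given as a description and were not tested: over all peaks, 4.07% met its criteria for Dex, 2.42% those for IL4 and 0.664% both. The tests were made in a second genotype, called KO, that the rule did not use.

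The cells were macrophages grown for 5 days from bone marrow of male C57BL/6 mice 8 to 10 weeks old, from the femur and tibia, in medium with L-cell conditioned medium. WT cells were LysM-Cre+/+ with GRIP1wt/wt and KO cells LysM-Cre+/+ with GRIP1fl/fl, so both genotypes carried the Cre recombinase, which the LysM locus drives in myeloid cells. GRIP1, encoded by Ncoa2, is a p160 coactivator of nuclear receptors. Each genotype received vehicle, 100 nM Dex or 10 ng/ml IL4, with 4 libraries in each of the 6 groups. Treatment lasted 24 h by the titles, although the vehicle libraries are labelled 25 h in their treatment field. No label ties the 4 libraries of a group to different mice or cultures, so p-values cover the spread between these libraries only, which may be technical.

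Chromatin is opened at enhancers and promoters by transcription factors that displace nucleosomes, and many open regions far from start sites are enhancers. Dex binds the glucocorticoid receptor, a nuclear receptor that activates some genes and represses many inflammatory ones. IL4 acts through its receptor and the transcription factor STAT6 and drives macrophages towards a tissue repair program. In myeloid cells PU.1, RUNX, C/EBP and AP-1 factors hold many enhancers open, and NF-kB joins them at inflammatory genes. Genes are named here by the nearest transcription start site (TSS), which need not be the gene that the peak controls.

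Counts in peaks ran from 5820149 to 21939330 per library, and from 7552327 to 17845255 in KO. The peak over the Ncoa2 TSS, chr1:13372246-13374626 (mm10), had 84.8 ± 1.0 CPM (SD, n = 4) in WT vehicle and 88.1 ± 4.0 in KO vehicle; the labels do not give the deleted part of the gene, so this checks nothing. Other peaks at the locus, picked after their values were seen and not tested, differed more: 6.78 ± 0.56 in WT vehicle and 3.12 ± 0.39 in KO vehicle at chr1:13256160-13256636, 5.8 ± 0.49 and 2.15 ± 0.51 at chr1:13153076-13153733, and 1.02 ± 0.30 and 7.87 ± 1.24 at chr1:13423543-13423943. Of 12 macrophage markers 10 had a peak within 1 kb of their TSS (not Aif1 and Tyrobp), with a summed level of 308 to 332 CPM in KO vehicle, 299 to 334 in KO Dex and 288 to 297 in KO IL4. This sum was lower in each KO IL4 library than in each KO vehicle library. Summed promoter peaks of 3 other marker lists were higher in each KO IL4 library than in each KO vehicle library. They were 37.4 to 43.9 against 25.6 to 30.3 CPM for 5 of 9 B cell genes (Cd79a, Ms4a1, Pax5 and Vpreb1 without one) and 55.9 to 61.2 against 46.1 to 51.3 for 5 of 12 T and NK cell genes (Cd3d, Cd3e, Cd3g, Cd4, Cd8a, Lck and Ncr1 without one). For 5 of 11 erythroid and megakaryocyte genes they were 39.9 to 45.6 against 30.7 to 33.0 (Gata1, Hba-a1, Hbb-bs, Hbb-bt, Klf1 and Pf4 without one). In each of these 3 sums 1 gene held the largest part in KO vehicle: Blnk (15.3 CPM), Gata3 (27.5) and Itga2b (19.2). Each other gene in them was at 10.7 CPM or below, and which genes rose with IL4 was not tested. For 2 of 10 stromal genes (Cxcl12 and Pdgfrb) the ranges met, at 7.76 to 9.71 and 5.68 to 7.81, and the neutrophil, dendritic cell and mast cell lists overlapped vehicle. In KO Dex the sums of the B cell, T and NK cell and erythroid lists overlapped vehicle. The part of other cells in the results was not tested. No member was assigned to any gene of the 8 marker lists. These lists had only 29 to 98 tested peaks each, where 0.664% of all peaks were members. In bulk chromatin, fewer cells with an open region and less access per cell cannot be told apart.

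Before the values, promoter windows that overlap 4 members are shown, because these are the part of the set whose bases could be read. No genome was used, and RefSeq (GRCm38.p6, which shares its coordinates with mm10) gave a window of 250 bases before to 50 after a TSS. Of the members, 17 overlapped such a window, and a window can run past its peak. The 4 shown were chosen after their values were seen, for having a motif and a named gene. Capitals mark TGTGGT (RUNX), GAGGAA (the core of the PU.1 site), TGANTCA (AP-1) and the kappa B motif, on either strand, so that ACCACA and TTCCTC are the first pair read on the other strand. Pilra (an inhibitory immunoglobulin-like receptor of myeloid cells), chr5:137836229-137836528, minus strand, holds PU.1 and RUNX letters. This window runs past the peak, which ends at 137836418, and read in the gene's direction its PU.1 letters lie outside the peak. Tnfrsf9 (the costimulatory receptor 4-1BB), chr4:150927749-150928048, plus strand, holds overlapping kappa B matches, AP-1 and RUNX. Kcna3 (a voltage-gated potassium channel), chr3:107035912-107036211, plus strand, holds PU.1 letters, and Zfp811 (a zinc finger protein), chr17:32809882-32810181, minus strand, holds RUNX.
Pilra: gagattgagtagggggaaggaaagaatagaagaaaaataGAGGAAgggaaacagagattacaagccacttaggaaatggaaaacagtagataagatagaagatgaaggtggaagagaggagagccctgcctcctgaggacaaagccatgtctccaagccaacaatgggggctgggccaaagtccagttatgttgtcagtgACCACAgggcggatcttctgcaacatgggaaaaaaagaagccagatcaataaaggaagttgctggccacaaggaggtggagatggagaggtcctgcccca
Tnfrsf9: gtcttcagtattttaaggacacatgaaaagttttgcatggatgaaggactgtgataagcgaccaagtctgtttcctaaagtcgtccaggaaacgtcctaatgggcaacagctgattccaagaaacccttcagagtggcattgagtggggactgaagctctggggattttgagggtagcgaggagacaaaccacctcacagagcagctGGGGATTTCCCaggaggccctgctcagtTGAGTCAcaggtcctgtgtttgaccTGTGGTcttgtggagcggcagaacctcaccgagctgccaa
Kcna3: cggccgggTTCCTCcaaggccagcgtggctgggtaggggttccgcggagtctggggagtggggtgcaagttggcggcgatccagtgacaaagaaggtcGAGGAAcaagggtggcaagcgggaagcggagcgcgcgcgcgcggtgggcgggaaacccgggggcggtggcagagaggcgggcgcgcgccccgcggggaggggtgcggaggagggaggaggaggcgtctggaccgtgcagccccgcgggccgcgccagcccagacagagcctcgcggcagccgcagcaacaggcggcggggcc
Zfp811: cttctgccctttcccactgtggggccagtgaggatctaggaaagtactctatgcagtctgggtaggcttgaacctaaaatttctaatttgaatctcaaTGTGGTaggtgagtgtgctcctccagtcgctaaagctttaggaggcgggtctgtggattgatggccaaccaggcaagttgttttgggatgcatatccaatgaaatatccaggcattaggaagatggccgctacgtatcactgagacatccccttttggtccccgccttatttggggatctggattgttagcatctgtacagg

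RUNX letters stood in 8 of the 17 windows (47.1%), against 13.1% of the 15457 RefSeq promoter windows that overlapped any peak and 16.7% of all 32544. PU.1 core letters stood in 6 (35.3%, against 27.9% of windows in peaks) and AP-1 letters in 2 (11.8%, against 6.0%). Kappa B was found in 1 window (5.9%, against 7.3%). The glucocorticoid response element, an inverted repeat, was found in 0 of the 17 and in 0.3% of windows in peaks. The STAT6 motif stood in 2 (11.8%, against 5.6%), and KLF or SP letters CCNCCC in 12 (70.6%, against 85.8%). The windows had a median GC content of 54.3%, against 61.0% for promoters in peaks. The counts cover whole windows, and a match can lie outside the member. This holds for the PU.1 letters at Pilra, Gm42210 and 4732419C18Rik and for the RUNX letters at Gm42210. The windows are few, a match is not a site, and most members lie elsewhere.

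The 4 peaks were called lower with both treatments in the KO libraries, which the rule did not use. The Tnfrsf9 peak overlaps a RefSeq start site, but lies 7.6 kb from the nearest TSS listed in the deposited table, a distance computed here. The Pilra peak (chr5:137835987-137836418) had 5.97, 11.4, 8.74 and 11.3 CPM in KO vehicle, 4.61, 5.97, 5.34 and 6.39 in KO Dex, and 5.37, 3.31, 4.43 and 5.36 in KO IL4. KO vehicle replicate 1 lay inside the range of KO Dex and above each KO IL4 library. Its log2 fold change was -0.72 ± 0.15 (SE, edgeR adjusted p = 0.000609) with Dex and -1.11 ± 0.16 (edgeR adjusted p = 5.03e-07) with IL4. The Kcna3 peak (chr3:107035818-107036612) held 18.4 ± 1.2 CPM (SD, n = 4) in KO vehicle, 13.4 ± 1.6 in KO Dex and 9.0 ± 0.88 in KO IL4, and the 3 groups did not overlap. It fell more with IL4 than with Dex (difference -0.64 ± 0.11, SE, edgeR adjusted p = 4.43e-07). The Zfp811 peak (chr17:32809746-32810199) fell from 5.89 ± 1.39 to 3.33 ± 0.38 with Dex and 2.56 ± 0.52 with IL4, with log2 fold changes of -0.81 ± 0.16 and -1.28 ± 0.18 (SE, edgeR adjusted p = 0.000114 and 8.53e-09). The Tnfrsf9 peak (chr4:150927200-150928361) had 8.38, 5.82, 5.03 and 3.81 CPM in KO vehicle, 4.81, 3.29, 3.24 and 3.59 in KO Dex and 4.76, 3.70, 4.34 and 3.36 in KO IL4, so the groups overlapped. Its log2 fold changes were -0.58 ± 0.17 and -0.54 ± 0.17 (SE, edgeR adjusted p = 0.0106 in each), and without KO vehicle replicate 1 they were -0.39 and -0.36 and neither was called.

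In the KO cells most of the 959 peaks were lower with each treatment. With Dex, 714 (74.5% of the 959) were called lower than KO vehicle by edgeR's quasi-likelihood test at a Benjamini-Hochberg adjusted p below 0.05, where 7.14% of the 125167 tested peaks were called lower. With IL4, 721 (75.2%) were called lower, where 13.8% of tested peaks were. None was called higher in either comparison, against 6.92% and 17.3% of tested peaks; at an unadjusted p under 0.05 the number higher was also 0 in both, and DESeq2 called 0. The test covered 879 of the 959; the other 80 had too few counts. Because the filter can keep a low peak through its vehicle libraries (122 of the 879 had fewer than 4 treated KO libraries at its minimum), the fit was repeated without it. All 959 then entered, and 724 (75.5%, against 5.75% of all peaks) were lower with Dex and 747 (77.9%, against 11.8%) with IL4. None was higher, against 6.12% and 15.1% of all peaks. The KO Dex and KO IL4 comparisons share the KO vehicle libraries, so their counts are given side by side and not as support for each other.

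The size of the change in KO was similar for the 2 treatments. The median log2 fold change over the 959 peaks in the fit without a filter was -0.87 with Dex, an accessibility of 54.7% of vehicle, and -0.89 with IL4 (54.1%), where all peaks had medians of -0.01 and -0.02. Among the 879 tested peaks the middle 50% of values ran from -1.22 to -0.60 with Dex and from -1.19 to -0.63 with IL4. The extremes were -3.03 and 0.39 with Dex, and -2.72 and 0.60 with IL4. A fall of at least 2-fold was called at 350 with Dex, where 1.69% of all tested peaks had one, and at 341 with IL4, where 0.991% had one.

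**Figure D1:**
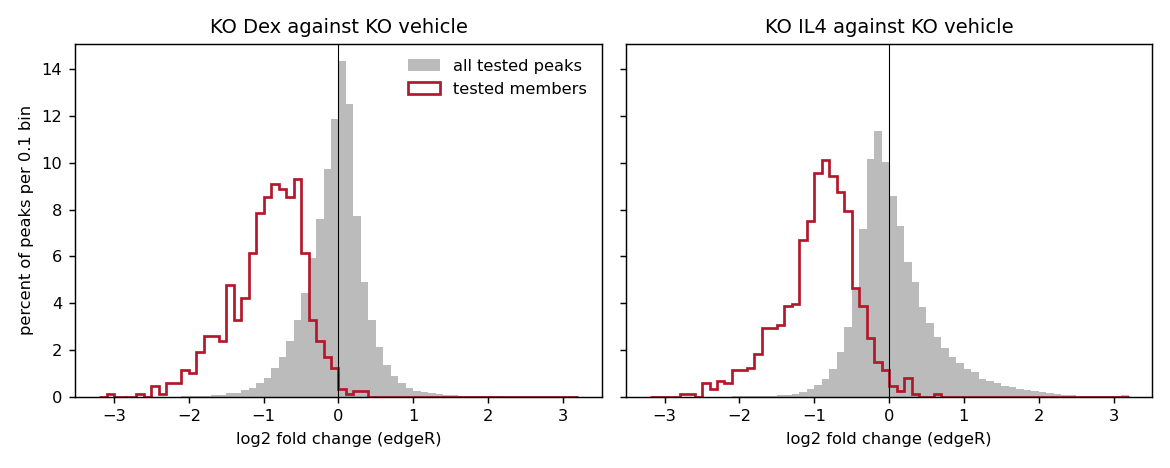
Distribution of log2 fold changes in KO Dex (left) and KO IL4 (right) against KO vehicle, as percent of peaks in bins 0.1 wide, for the 125167 tested peaks (grey) and the 879 tested members (red line). The members centre near -0.88 in both panels, while the tested peaks centre near 0.

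Single libraries were also compared without a model. All 4 KO Dex libraries lay below all 4 KO vehicle libraries at 675 of the 959 peaks (70.4%, against 8.63% of all peaks), and all 4 KO IL4 libraries did at 599 (62.5%, against 9.05%). The whole of the criteria for 1 treatment, separation and a level at least 0.6 lower, was met in KO at 564 with Dex (58.8%, against 3.29%) and 512 with IL4 (53.4%, against 1.90%). The rule for both treatments, applied to the KO libraries, chose 916 peaks. Of these 410 were also among the 959, which is 42.8% of the 959 and 44.8% of the 916. Each set showed larger falls in the genotype that chose it. At the 959 the median level difference was -0.90 with Dex and -0.86 with IL4 in WT, and -0.73 and -0.69 in KO. At the 916 it was -0.91 and -0.87 in KO, and -0.86 and -0.85 in WT.

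The median level of the 959 peaks was 3.52 CPM in WT vehicle, 1.5 in WT Dex and 1.65 in WT IL4. In KO it was 3.35 with vehicle, 1.64 with Dex and 1.80 with IL4. The medians over all 144411 peaks stayed between 2.11 and 2.64 CPM in the 6 groups. By library, the median of the 959 ran from 3.17 to 3.62 CPM in KO vehicle, from 1.58 to 1.81 in KO Dex and from 1.76 to 1.93 in KO IL4, with no overlap between vehicle and either treatment. Replicate 1 was often the highest of its group at these peaks: at 44.9% of them in WT vehicle, 51.9% in WT Dex, 43.8% in WT IL4, 37.7% in KO Dex and 38.2% in KO IL4. Over all peaks the same libraries were highest at 25.1%, 25.0%, 25.8%, 36.9% and 31.5%. In KO vehicle replicate 2 was highest most often (32.6%, against 20.0% of all peaks). Leaving it out gave the fewest members called lower of any KO library left out, 614 with Dex and 638 with IL4. WT vehicle replicate 4 was the lowest of its group at 43.8% of the members, against 23.0% of all peaks, and without it the rule chose 1339 peaks. The share of counts in peaks within 1 kb of a TSS lay between 30.5% and 32.1% in KO vehicle, 31.7% and 32.6% in KO Dex, and 28.3% and 29.4% in KO IL4; its part in the result was not tested.

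The members with the largest falls in WT were led by peaks near Gtdc1, Rapgef5, Nap1l2 and Prkcb, and at each of the 8 named by this measure KO vehicle was above both treated KO groups. They were chosen for the larger of the 2 WT differences being most negative, at a mean WT vehicle level of at least 2 CPM. The peak 30.0 kb from the Gtdc1 TSS (chr2:44957071-44957495) had 15.9, 11.8, 8.83 and 5.77 CPM in WT vehicle, 4.39, 1.72, 0.994 and 1.37 in WT Dex, and 2.87, 2.35, 1.66 and 0.672 in WT IL4. In KO it had 8.89, 12.5, 10.3 and 13.9 CPM with vehicle, 2.51, 1.61, 1.88 and 2.52 with Dex, and 2.33, 1.70, 2.58 and 0.959 with IL4. Each KO vehicle library was above each treated one, and the log2 fold changes were -2.40 ± 0.17 and -2.69 ± 0.18 (SE, edgeR adjusted p = 3.97e-18 and 2.07e-19). Gtdc1 had 4 members within 50 kb of its TSS, and all 4 were called lower with both treatments.

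Rapgef5 encodes an exchange factor for Rap GTPases. A member 43.5 kb from its TSS, inside Gm31482 (chr12:117472786-117473243), had 5.59, 7.31, 7.42 and 8.89 CPM in KO vehicle, 0.802, 1.34, 0.903 and 1.74 in KO Dex, and 1.01, 1.31, 2.58 and 1.36 in KO IL4. The treated groups overlapped each other and stayed well below vehicle, at -2.49 ± 0.20 and -2.27 ± 0.20 (SE, edgeR adjusted p = 4.7e-16 and 6.25e-15). A neighbouring member with no assigned gene (chr12:117474917-117475065) had the lowest KO Dex value of the tested members, -3.03 ± 0.32, with 2.98 ± 0.89 CPM in KO vehicle (SD, n = 4) and 0.333 ± 0.102 in KO Dex. Members 32.5 and 84.0 kb inside the gene fell as well, by 1.42 and 1.42 on the log2 scale with Dex and by 0.94 and 1.31 with IL4.

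The gene of protein kinase C beta, Prkcb, held a member in its body 39.1 kb from the TSS (chr7:122327953-122328494). It ended a run of 3 members from 122300762 to 122328494, all 3 called lower with both treatments, and was the only one of them with an assigned gene. At this peak KO vehicle had 9.90, 12.4, 8.61 and 13.2 CPM, KO Dex 1.71, 2.01, 2.18 and 2.07, and KO IL4 3.85, 2.70, 2.86 and 3.28. Here the 2 treated groups did not overlap, and the fall was larger with Dex (-2.43 ± 0.16) than with IL4 (-1.88 ± 0.15), a difference of 0.55 ± 0.19 (SE, edgeR adjusted p = 0.0161). Near Nap1l2, of the nucleosome assembly protein family (chrX:103149298-103149939), KO vehicle held 8.97 ± 0.44 CPM (SD, n = 4), KO Dex 2.17 ± 0.86 and KO IL4 2.83 ± 0.73. Inside Megf10, an engulfment receptor (chr18:57167333-57168228), these were 23.0 ± 3.8, 5.48 ± 1.52 and 6.35 ± 0.80. The remaining 3 were near Tlk1 (a kinase acting in chromatin assembly), Arhgef6 (an exchange factor for Rac and Cdc42) and Tmed3 (a cargo receptor of the secretory pathway), with KO log2 fold changes of -1.91, -2.25 and -2.16 with Dex and -1.86, -2.36 and -1.88 with IL4.

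**Figure D2:**
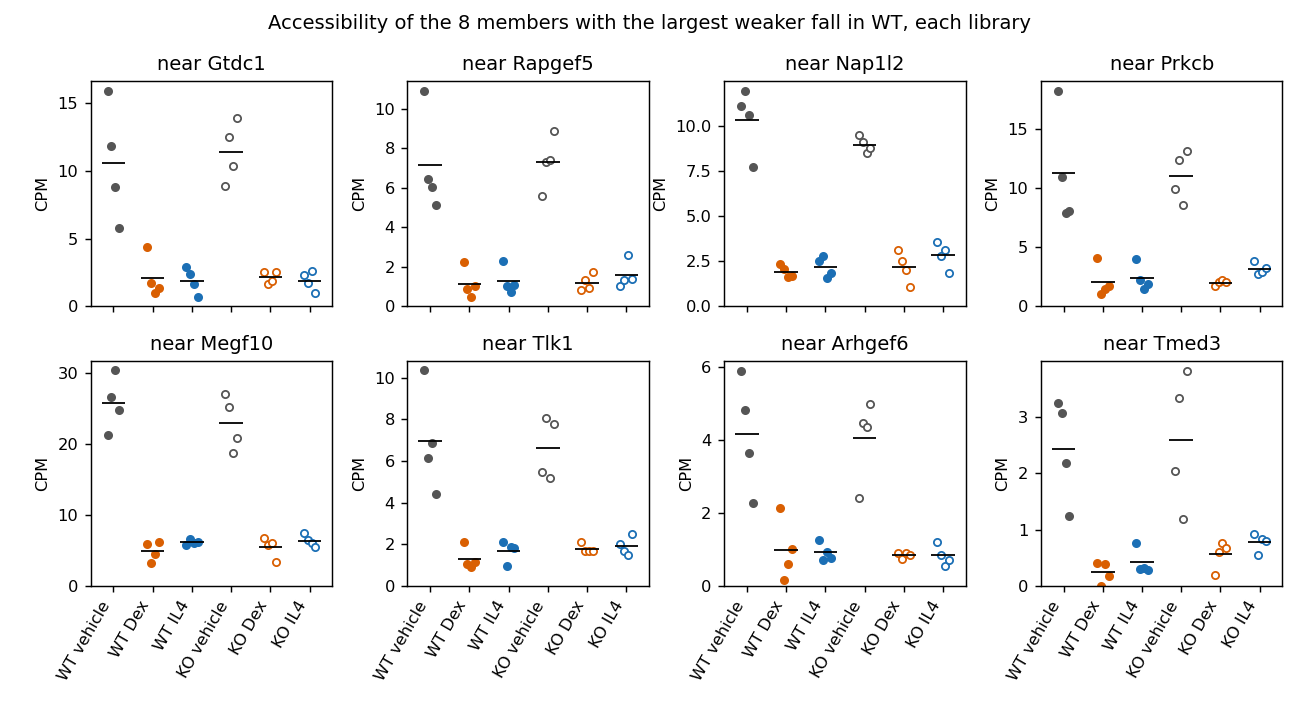
CPM (linear axis from 0) of each library at the 8 peaks with the largest weaker fall in WT, one panel a peak; points are libraries, bars the mean of 4, filled points WT and open points KO. At Gtdc1 KO vehicle libraries sit between 8.89 and 13.9 CPM and both treated KO groups below 2.6.

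The 4 members with the highest WT vehicle level had smaller falls. A peak with no assigned gene (chr17:35218541-35220353) went from 55.0 ± 1.9 CPM (SD, n = 4) in KO vehicle to 32.9 ± 2.8 with Dex and 31.3 ± 3.3 with IL4. Near Cd52, which encodes a small surface glycoprotein of leukocytes (chr4:134096972-134097582, 2.2 kb from the TSS), the values were 46.3 ± 3.8, 29.8 ± 1.7 and 30.5 ± 2.3. Neither of these peaks was called different between the treatments (edgeR adjusted p = 0.0999 and 0.577). The other pair fell more with IL4. At Tmsb4x, the gene of the actin-binding thymosin beta 4 (chrX:167205762-167207209), KO vehicle had 74.4, 95.9, 80.4 and 81.2 CPM, KO Dex 50.6, 58.8, 55.6 and 54.4, and KO IL4 51.0, 38.1, 38.4 and 36. KO IL4 replicate 1 lay apart from its group, and the difference between the treatments was -0.52 ± 0.08 (SE, edgeR adjusted p = 6.78e-07). The same peak held 47.8 ± 7.9 CPM in WT vehicle, a level not tested against KO. Near Gm11541 (chr11:94692442-94693123) the KO levels were 42.2 ± 4.8, 26.3 ± 2.8 and 19.7 ± 1.8 CPM, and the difference was -0.51 ± 0.09 (SE, edgeR adjusted p = 3.01e-06).

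Of inflammatory cytokine genes, Ifng and Il6 had members, 3 in all, each called lower with both treatments. Of the 231 tested peaks of this list 39 were called lower with Dex and 55 with IL4. Among all tested members 81.2% and 82.0% were called lower, and the counts of called members in each list stand beside these shares. The peak 54.6 kb from the TSS of Ifng, which encodes interferon gamma (chr10:118495228-118496011), had 7.36, 10.2, 8.74 and 9.79 CPM in KO vehicle. It had 2.21, 1.88, 2.26 and 3.08 in KO Dex and 2.84, 2.23, 3.14 and 2.48 in KO IL4. Vehicle stood apart from both treatments, which overlapped, at -1.88 ± 0.16 and -1.83 ± 0.16 (SE, edgeR adjusted p = 2.15e-16 and 6.05e-16). The Il6 peak, 132.8 kb from the TSS of this acute phase cytokine gene (chr5:29879982-29880626), was weak: 2.54, 2.48, 3.44 and 1.81 CPM in KO vehicle, 0.802, 0.536, 0.602 and 0.672 in KO Dex, and 0.912, 1.00, 0.923 and 0.799 in KO IL4. No treated library reached a vehicle library, and the changes were -1.90 ± 0.28 and -1.49 ± 0.27 (SE, edgeR adjusted p = 1.36e-07 and 5.93e-06).

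Of 20 chemokine genes only Ccl4, whose product attracts monocytes and lymphocytes, had members, a pair. The peak over its TSS (chr11:83662300-83662927) had 22.1, 21.5, 16.3 and 23.7 CPM in KO vehicle, 11.8, 9.59, 9.18 and 9.25 in KO Dex, and 12.7, 10.2, 11.1 and 10.6 in KO IL4. The groups did not overlap with vehicle, and the changes were -1.05 ± 0.10 and -0.97 ± 0.10 (SE, edgeR adjusted p = 2.47e-13 and 2.48e-12). The peak 3.2 kb away (chr11:83665316-83666164) went from 16.4 ± 1.4 CPM (SD, n = 4) to 8.54 ± 0.63 and 8.44 ± 1.74. Inside Fpr1, the gene of a receptor for bacterial formyl peptides (chr17:17878214-17878868), KO vehicle had 14.3 ± 2.4 CPM, KO Dex 7.30 ± 1.19 and KO IL4 4.54 ± 0.45. This peak fell more with IL4, by a difference of -0.78 ± 0.14 (SE, edgeR adjusted p = 4.81e-06). Fpr1 also stood on the list of glucocorticoid receptor targets.

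The list of pattern recognition receptors and adaptors had 4 members, at Tlr1, Tlr4, Irak2 and Irak4. The 3 that were tested were called lower with both treatments. Of the 228 tested peaks of this list 20 were called lower with Dex and 75 with IL4. At the peak near Tlr1, which acts with TLR2 on bacterial lipopeptides (chr5:64912816-64913206), KO vehicle had 1.40, 2.70, 2.52 and 2.45 CPM, KO Dex 0.501, 0.201, 0.527 and 0.672, and KO IL4 0.710, 0.925, 0.738 and 0.560. Both treatments lay below vehicle in each library. The peak inside Irak4, a kinase downstream of these receptors (chr15:94559414-94559613), was too weak to be tested in KO: it had 0.762, 0.852, 0.530 and 0.635 CPM in KO vehicle, against 0.335 to 0.903 in KO Dex and 0.738 to 0.959 in KO IL4. There the groups overlapped, unlike in WT, where the rule required separation.

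Among regulators of NF-kB, Birc3 and Tnfaip3 had members. Both Birc3 peaks fell; Birc3 encodes a ubiquitin ligase of the TNF receptor pathway. The nearer (chr9:7857216-7857744) had log2 fold changes of -0.95 ± 0.17 with Dex and -1.31 ± 0.18 with IL4, and the farther (chr9:7896141-7897009) of -0.98 ± 0.15 and -0.99 ± 0.16 (SE, edgeR adjusted p at most 1.53e-05). The peak 76.7 kb from Tnfaip3, the gene of the inhibitor A20 (chr10:18935145-18935430), had 2.03, 2.63, 4.24 and 4.17 CPM in KO vehicle, 0.702, 0.805, 1.35 and 1.51 in KO Dex and 2.64, 2.23, 2.12 and 2.40 in KO IL4. KO IL4 overlapped vehicle and KO Dex did not. The Dex change was -1.45 ± 0.24 (SE, edgeR adjusted p = 2.96e-06), the IL4 change of -0.51 ± 0.22 was not called (edgeR adjusted p = 0.0659), and the difference between them was 0.95 ± 0.25 (edgeR adjusted p = 0.0012). Without KO vehicle replicate 1, or without replicate 2, the IL4 change was called, at -0.66 and -0.63, as it was with the replicate block (-0.51) and with loess scaling (-0.59).

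Of the AP-1 and related factors, Fosl2, Maf and Nfe2l2 had 4 members, of which 3 were called lower with each treatment. Among the 294 tested peaks of this list 32 were called lower with Dex and 67 with IL4. The weak peak 315.0 kb from Maf (chr8:116021807-116021999) had 1.33 ± 0.45 CPM (SD, n = 4) in KO vehicle, 0.866 ± 0.299 in KO Dex and 0.930 ± 0.401 in KO IL4, and was not called (edgeR adjusted p = 0.276 and 0.263). Near Nfe2l2, the gene of the antioxidant factor NRF2 (chr2:75737272-75737615), KO vehicle had 5.88 ± 0.82 CPM, KO Dex 3.97 ± 0.56 and KO IL4 3.53 ± 0.48. Its Dex change of -0.54 ± 0.15 (SE, edgeR adjusted p = 0.00892) was not called without KO vehicle replicate 4 (-0.47) or KO Dex replicate 2 (-0.46). The interferon-stimulated genes had 1 member, inside Ifih1, the gene of the RNA sensor MDA5 (chr2:62635074-62635750): 11.6 ± 1.7 CPM in KO vehicle, 8.10 ± 0.88 in KO Dex and 6.95 ± 0.86 in KO IL4. The list of interferon regulatory factors and STATs, with 227 tested peaks at 20 of 23 genes, had 0 members, where 0.664% of all peaks were members.

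Macrophage lineage factors had 7 members, near Egr3, Klf4, Mef2a, Mitf and Zeb2. Of these 5 were called lower with Dex and 6 with IL4, and of the 587 tested peaks of this list 57 and 91 were. The peak 82.5 kb from Egr3, a zinc finger factor gene (chr14:69994744-69995181), had 3.05, 6.32, 6.75 and 7.35 CPM in KO vehicle, 2.51, 1.14, 1.13 and 1.57 in KO Dex and 1.32, 1.70, 2.49 and 2.24 in KO IL4. KO vehicle replicate 1 was well below its group but above each treated library. A pair of peaks lay over 420 kb from Klf4, whose product is induced by IL4. The stronger (chr4:55955554-55956161) went from 10.6 ± 1.4 CPM (SD, n = 4) to 6.43 ± 0.88 with Dex and 4.19 ± 0.88 with IL4, and fell more with IL4 (difference -0.74 ± 0.15, SE, edgeR adjusted p = 2.5e-05). The weaker (chr4:55953791-55954020) was called with IL4 (-0.96 ± 0.18, edgeR adjusted p = 8.27e-06) and not with Dex (-0.35 ± 0.16, edgeR adjusted p = 0.141). The peak inside Mitf (chr6:97987528-97987841), a factor of lysosomal genes, had changes of -0.78 ± 0.25 and -0.80 ± 0.26 (SE, edgeR adjusted p = 0.023 and 0.0116); neither was called without KO vehicle replicate 4 (-0.67 and -0.70), and they were lost as well without KO Dex replicate 3 (-0.59) and KO IL4 replicate 4 (-0.65).

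Smaller groups followed. Map2k6, the gene of a kinase that activates p38, had a member (chr11:110439086-110439671) that went from 6.21 ± 0.80 CPM (SD, n = 4) to 2.98 ± 0.78 with Dex and 3.00 ± 0.91 with IL4. The adhesion genes Alcam and Selplg, the latter encoding the P-selectin ligand, had log2 fold changes of -0.85 and -1.07 with Dex and -1.04 and -0.83 with IL4. H2-DMb1, which loads peptides on class II molecules, had a pair. The peak in its body (chr17:34158833-34159298) was called with both (-0.52 ± 0.15 and -0.82 ± 0.16, SE, edgeR adjusted p = 0.012 and 3.17e-05); the Dex call was lost without KO vehicle replicate 2 (-0.42) or KO Dex replicate 4 (-0.37). The peak in H2-DMb2 (chr17:34150169-34150514) was called with IL4 alone (-0.64 ± 0.17, edgeR adjusted p = 0.00174; with Dex -0.29 ± 0.16, edgeR adjusted p = 0.226), a difference of -0.34 that was not called (edgeR adjusted p = 0.085). At Vegfc, the gene of a lymphatic growth factor, the peak in the gene (chr8:54119990-54120447) fell by 1.46 with Dex and 1.02 with IL4 on the log2 scale. The second Vegfc peak (chr8:54216203-54216634) fell by 1.63 and 0.97, and less with IL4 than with Dex (difference 0.67 ± 0.27, SE, edgeR adjusted p = 0.0407).

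**Figure D3:**
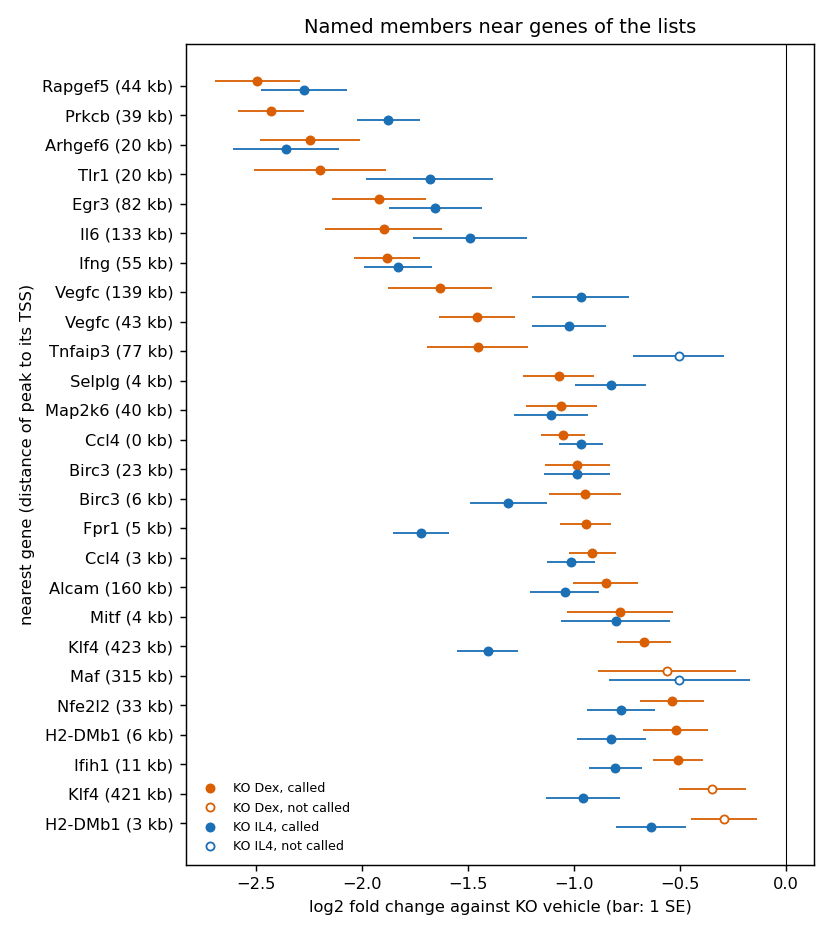
Log2 fold change against KO vehicle (points, with bars of 1 SE) at named members near genes of the lists, Dex in orange and IL4 in blue; filled points were called at an adjusted p below 0.05, and the distance of the peak to the TSS is given with the gene. Values run from -2.49 for Dex near Rapgef5 to about -0.3, all below 0.

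In all, 45 members lay near 33 of the 459 listed genes. They were 0.845% of the peaks assigned to a listed gene, and members were 0.717% of the peaks assigned to any gene. The cell cycle list (175 tested peaks) and the list of efferocytosis and scavenger receptors (272 tested peaks) had 0 members. At a share of 0.717% lists of this size would hold few members, so these counts are close to that share. The IL4 and STAT6 target list had only the Klf4 pair, and the 365 tested peaks of that list were called lower at 34 and higher at 146 in KO IL4. The 300 tested peaks of glucocorticoid receptor targets were called lower at 23 and higher at 95 in KO Dex, and 2 of this list's peaks were members (Fpr1 and Tnfaip3).

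The 959 peaks were mostly far from start sites. The deposited gene table holds 636 of them, and 15 of those (2.36%) lay within 1 kb of a TSS, against 9.67% of all peaks in that table. Their median distance was 25.5 kb, against 17.9 kb, and 13.7% lay over 100 kb away, against 9.65%. A FANTOM enhancer label was given to 11.2%, against 13.8%. By length the members were ordinary, with a median of 395 bases against 392, but only 4.38% were 1 kb or longer, against 9.27%. Gene bodies held 61.6% of them, against 64.4% of all peaks. Of the few tested members within 1 kb of a TSS, 20 of 25 were called lower with Dex and 18 of 25 with IL4. Of all 13221 tested peaks that near a TSS, 2.78% were called lower with Dex and 33.6% with IL4.

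Some members lay near each other. Of the 959, 213 (22.2%) had another member within 50 kb, and 21 runs held 3 or more. In sets of similar size this share was 29.8% of the 1120 peaks closed by IL4 and not Dex, and 27.9% of the 916 chosen by the same rule in KO. The longest held 5 each: on chromosome 11 from 94655960 to 94709247 (near Gm11541, Mrpl27 and Xylt2), on chromosome 12 from 26174685 to 26195969 (near Gm29687), on chromosome 17 from 57434530 to 57488389 (near Vmn2r120), and on chromosome 18 at Megf10. In the first 3 of these runs all 5 members were called lower with both treatments in KO. At Megf10, 4 of the 5 were tested, 4 were called lower with Dex and 3 with IL4. At Daam1, a formin gene, 5 members lay within 50 kb of the TSS and all 5 were called with both; the one with the most signal (chr12:71981140-71981632) went from 12 ± 0.6 CPM (SD, n = 4) to 8.20 ± 0.51 and 7.28 ± 1.12. Near 8030442B05Rik, 1 of 2 members was called with each treatment; its peak with the most signal (chr2:11408459-11408820) lost the Dex call (-1.08) without KO vehicle replicate 4 (-0.78). Near Slc5a1, a glucose transporter gene, 2 of 3 members were called with Dex and 3 with IL4, and they included 1 (chr5:33095213-33095889) that fell more with Dex (19.3 ± 1.6 to 9.47 ± 0.34 CPM) than with IL4 (12.6 ± 2.8; difference 0.32 ± 0.11, SE, edgeR adjusted p = 0.0162). Members of a run share their locus and were not counted as separate evidence. Between chromosomes the share of peaks that were members ran from 0.469% (chromosome 7) to 0.881% (chromosome 12), with 0 of 49 on Y.

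The 2 treatments were then compared directly in KO. Of the 879 tested members, 94 (10.7%) were lower with IL4 than with Dex and 67 (7.62%) were higher, while 718 were not called. The background of this comparison was 20.5% lower and 22.4% higher. With libraries scaled by total counts alone the split was 58 lower and 96 higher, so the direction of the balance depends on the scaling. All tested peaks moved the same way, from 25650 lower and 28007 higher to 19065 lower and 32412 higher. Peaks whose WT fall was larger with IL4 by at least 0.3 (93 peaks) had a median KO difference of -0.42, with 45 called lower with IL4 and 0 higher. Those whose WT fall was larger with Dex (140 peaks) had a median of 0.40, with 1 lower and 48 higher. The 646 between had a median of -0.03, with 48 lower and 19 higher. Across the 879 peaks the WT and KO values of this difference had a correlation of 0.63, and across all tested peaks of 0.91; these are given as a description, since peaks share libraries and are not replicates.

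**Figure D4:**
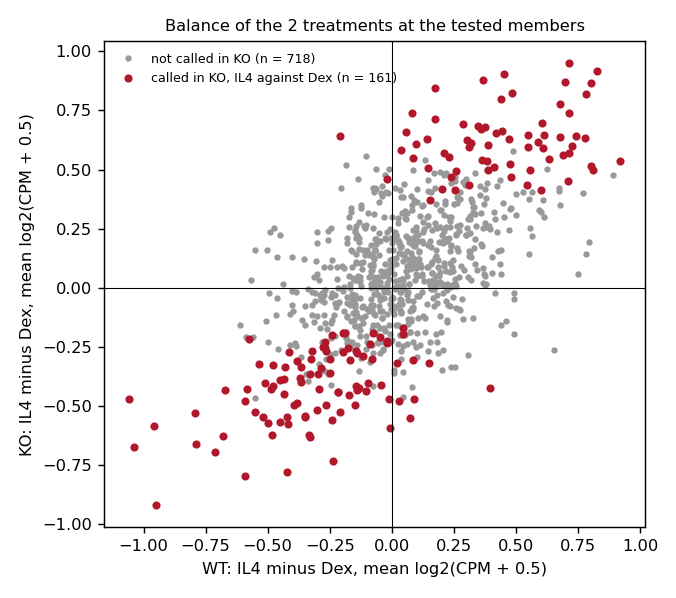
Difference of level (mean log2(CPM + 0.5)) between IL4 and Dex in WT (x axis) and KO (y axis) for the 879 tested members; red points were called in KO. Called peaks lie mainly at the lower left and upper right, while 718 were not called.

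A further 2 sets of peaks closed by a single treatment served as comparison. Peaks that met the WT criteria for Dex and did not fall by 0.2 or more with IL4 numbered 3333. Those closed by IL4 and not Dex, chosen in the same way, numbered 1120. No upper limit was set, so each set also holds peaks that rose in WT with the other treatment. In KO, 55.6% of the 3215 tested peaks of the first set were called lower with Dex, 1.21% lower with IL4 and 41.8% higher with IL4. Of the 1101 tested of the second, 81.1% were lower with IL4, 1.45% lower with Dex and 17.3% higher with Dex. Within 1 kb of a TSS lay 2.36% of the members in the deposited gene table, 2.47% of the Dex-only set and 9.83% of the IL4-only set. These are descriptions of sets chosen on WT values, and the difference between sets was not tested.

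**Figure D5:**
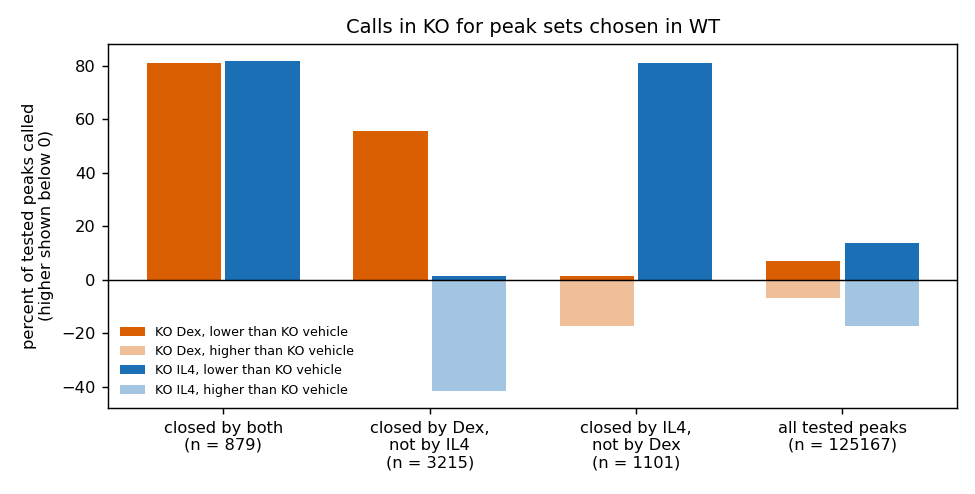
Percent of tested peaks called lower (above 0) or higher (below 0) than KO vehicle in KO Dex (orange) and KO IL4 (blue), for the 3 sets chosen in WT and for all tested peaks. Of the 879 tested members 81.2% were called lower with Dex and 82.0% with IL4 (75.5% and 77.9% of the 959 without the filter), of the Dex-only set 55.6% with Dex, and of the IL4-only set 81.1% with IL4.

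How often a member was called in KO moved with its level and with its WT difference. With the tested members split by mean KO level into 4 equal classes, from weakest to strongest, 64.5%, 76.8%, 88.1% and 95.5% were called lower with Dex, and 58.2%, 80.0%, 91.8% and 98.2% with IL4. The median log2 fold change went the other way, from -1.03 in the weakest class to -0.75 in the strongest with Dex, and from -0.95 to -0.86 with IL4. All tested peaks were not split by level, and whether the rise in calls follows the larger counts of stronger peaks was not tested. Split in the same way by the weaker WT difference, 98.2% of those with the largest falls and 65.5% of those with the smallest were called with Dex, and 98.2% and 71.8% with IL4. At the edge of the rule, the last peaks inside were near Fer (level differences of -0.60 with Dex and -0.94 with IL4) and Slc27a3 (-0.68 and -0.60). The first outside were a peak with no assigned gene at chr1:21006750-21006921 (-0.60 and -0.64) and one near Gm10466 (-1.04 and -0.60), which miss it in the fourth decimal.

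At the other end, a few members did not go down in KO. The highest values with Dex belonged to peaks near Ube2e1 (chr14:18377957-18378384), at 0.39 ± 0.31, and inside Rbfox3 (chr11:118775758-118775986), at 0.38 ± 0.34 (SE, edgeR adjusted p = 0.459 and 0.524). The Ube2e1 peak had 1.14, 1.28, 0.397 and 1.09 CPM in KO vehicle and 1.20, 1.81, 1.43 and 0.841 in KO Dex, and the groups overlapped. The highest with IL4 was near Apba2 (chr7:64468885-64469359), at 0.60 ± 0.54 (SE, edgeR adjusted p = 0.456), where KO IL4 had 3.14, 0.771, 2.12 and 0.560 CPM, a spread wider than its difference from vehicle. The lowest with IL4 was in Pitpnc1, a lipid transfer protein gene (chr11:107436828-107437090), at -2.72 ± 0.29 (SE, edgeR adjusted p = 8.65e-12), from 1.40, 3.98, 4.11 and 5.26 CPM in KO vehicle to between 0.480 and 0.738 in KO IL4. A peak inside Slc1a2 (chr2:102758358-102758577) had the second lowest Dex value, -2.68 ± 0.39, and fell less with IL4 (-0.97 ± 0.31; difference 1.71 ± 0.43, SE, edgeR adjusted p = 0.000786). Its IL4 call was lost without KO vehicle replicate 3 (-0.85), KO IL4 replicate 2 (-0.86) or KO IL4 replicate 4 (-0.79).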

How the data were processed

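ATAC-seq was done on 24 libraries (6 groups of 4; groups and replicate numbers from the titles). The authors deposited a matrix of raw read counts, 144411 peaks by 24 libraries, whole numbers without normalisation, with position, length and a true or false mark of unstated meaning. They also deposited a table of log2 fold changes, p-values and adjusted p-values with the nearest gene and distance for 71942 peaks. The deposited log2 fold changes served only as a check of scale (slope 1.00 against those computed here), and the deposited p-values and the authors' adjusted p-values were not used. The deposited nearest genes and other annotation columns were used as given. Per the submitters' processing notes, fastp, Bowtie2, SAMtools, MACS2, featureCounts and edgeR were used, with roles not given, on mm10.

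CPM was the count divided by the library's total in peaks. Peaks absent from the gene table got its nearest TSS within 50000 bases (118 members); 205 members kept no gene. The tests used the 12 KO libraries only, so that the spread is independent of the rule: filterByExpr, TMM scaling and a quasi-likelihood fit with a mean per group in edgeR 4.0.16 (R 4.3.3), with p-values adjusted by Benjamini-Hochberg over 125167 peaks. The standard error (SE) is the log2 fold change divided by the square root of F. The fit was checked on simulated data. Alternatives were other scalings, no filter, DESeq2 1.42.0, all 24 libraries, the replicate number as a block, and leaving out each library. The labels give replicate numbers no shared origin, and the deviations of same-numbered libraries had correlations of 0.01 to 0.15, over 0.1 in 5 of 12 pairs and not in each. Other-numbered libraries had -0.12 to 0.06, and in 22 of 24 relations the same-numbered library was the highest. The fit without a block was kept, since the labels do not state a pairing, and the fit with a block is given as an alternative.

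Named members were the 8 with the most negative weaker WT difference at a WT vehicle level of at least 2 CPM, the 4 with the highest level, 2 for each of 18 gene lists, the strongest at the 5 genes with most members, the tested extremes in KO, and the promoters shown. The members, lists and rules were chosen with earlier results of these data known. Motifs were searched in RefSeq windows (GRCm38.p6); peak sequences were not analysed here. The result of 1 gene list is not reported here.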

Additional observations from a re-analysis of the deposited data

Results flagged for a closer look

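Of 306 groups of 4 libraries at 51 named members, 21 had a library far from the other 3 of its group. Chance gives about 1 in 20. WT IL4 replicate 1 was the library in 5: at Tmed3 (0.760 CPM), Birc3 (4.73), Alcam (6.67), Selplg (4.81) and Slc5a1 (16.4). KO Dex replicate 1 was it in 4: at Tlk1 (2.11), Gm11541 (22.2), Ccl4 (11.8) and Klf4 (5.12). At Ifng and the peak inside Slc1a2 it was WT vehicle replicate 1 (10.8 and 2.27), at Nfe2l2 WT vehicle replicate 2 (6.80), and at the chromosome 17 peak with no gene WT Dex replicate 1 (38.9). Single flags fell on WT Dex replicate 2 at Kcna3 (14.6), WT IL4 replicate 3 at Ifih1 (7.06), KO vehicle replicate 1 at Gm29687 (16.5), KO vehicle replicate 4 at Mitf (2.63), KO Dex replicate 2 at Selplg (2.01), KO Dex replicate 4 at Slc5a1 (9.97), KO IL4 replicate 1 at Tmsb4x (51.0) and KO IL4 replicate 2 at Vegfc (3.47).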

How the results depend on the processing

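The counts of members lower in KO stayed within 1.5 times of 714 (Dex) and 721 (IL4) under each alternative, and the number higher stayed 0 in both. Leaving out each KO library gave 614 to 735 lower with Dex and 638 to 745 with IL4, with medians from -0.91 to -0.83 and from -0.92 to -0.85. DESeq2 called 600 and 639 lower, where it called 5522 and 12947 of all tested peaks lower. It did not call Mitf, H2-DMb1 and Tnfrsf9 with Dex (-0.79, -0.50 and -0.58). The IL4 against Dex comparison gave 94 lower and 67 higher, and leaving out a library gave 67 to 100 and 53 to 68. Scaling by total counts alone gave 58 lower and 96 higher, where all tested peaks gave 19065 and 32412. The number of members depended on the rule: a pseudocount of 1 gave 626, a threshold of -1 gave 182, and no demand for separation gave 1466. Leaving out a WT library gave 952 to 1339, the highest without WT vehicle replicate 4, and TMM-scaled CPM gave 881, of which 798 were among the 959. The values near 0 changed sign at Apba2 with Dex (main value 0.00): -0.048 with total counts alone, -0.0516 with the replicate block, -0.0304 with DESeq2 and from -0.285 to 0.310 with a library left out. At Ube2e1 the IL4 value ran from -0.0508 (without KO IL4 replicate 2) to 0.402 with a library left out. The cause was not tested.

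With the replicate number as a block, 728 members were lower with Dex and 736 with IL4, where 10726 and 20532 of all tested peaks were. The main fit called 8935 and 17313 of all tested peaks lower. In IL4 against Dex the block gave 109 members lower and 76 higher, where 28003 and 29513 of all tested peaks were. The block ended no call at a named member and added that of Tnfaip3 with IL4. The numbers share no stated origin. In 22 of 24 relations of a library with another group, the same-numbered library had the highest correlation, a hint from the data and not the design. Low counts limit the weakest members: 80 were not tested.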
